A study of Homo sapiens with 8 samples.

Results

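The small RNA silencing machinery of SW1353 cells was examined as 10 named genes: DROSHA, XPO5, DICER1, TARBP2, AGO1, AGO2, AGO3, AGO4, TNRC6A and TNRC6B. They were chosen by name for their role in making microRNAs or in acting with them, and the rule used no measured value, although earlier results of these data were known when they were chosen. The arrays carried 20 probes for these genes among 48803 probes in all, and 17 of the 20 were above background on at least 2 arrays. Each of the 10 genes therefore entered the tests, among 11182 genes. Their levels were measured in SW1353, an established human chondrosarcoma line used as a model of chondrocytes, on 8 Illumina whole-genome expression arrays in 4 groups of 2. The Allstars non-targeting siRNA was given to siCon cells and the QIAGEN siRNA for HDAC6 to siHDAC6 cells, HDAC6 being a cytoplasmic deacetylase of tubulin and other proteins. In the siCon + IL-1 and siHDAC6 + IL-1 groups IL-1alpha, an inflammatory cytokine, was added 24 h after the siRNA and, by the sample labels, for 6 h. All 4 groups thus carried a transfected siRNA, and no untransfected cells were among the arrays, so the effect of transfection on these genes could not be measured. The study's methods describe each treatment as made in duplicate. The sources used here do not say whether the duplicates came from separate cultures or days. The spread behind each p-value is only that between such duplicates, pooled over all 4 groups and moderated toward the spread of all genes.

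MicroRNAs are cut from long nuclear transcripts by DROSHA, carried to the cytoplasm by XPO5 (exportin-5), and cut again by DICER1 with the help of the double-stranded RNA-binding protein TARBP2. The product is loaded into an Argonaute protein, which pairs it with target mRNAs. TNRC6A and TNRC6B, the GW182 proteins, bind Argonaute and recruit the enzymes that shorten the poly(A) tail and remove the cap of the target. An siRNA enters this route at the loading step, and AGO2 is the Argonaute that cuts its target, so an siRNA knockdown relies on part of the machinery described here.

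HDAC6 signal, the target of the siRNA, was 6.36 and 6.32 (normalized log2 signal) on the siCon arrays against 5.14 and 4.87 on the siHDAC6 arrays, and lay below background on both siHDAC6 + IL-1 arrays. Between 14315 and 16659 probes (29.3% to 34.1%) were above background per array, and replicate arrays correlated at 0.988 to 0.992. Values are normalized log2 signals, the mean over a gene's probes that passed the filter, and they are compared within a gene only, since signals of different probes have no common scale. A gene was called higher or lower at an adjusted p under 0.05 in limma's linear model, with Benjamini-Hochberg adjustment across the 11182 genes. In such bulk samples fewer cells of a type and less RNA per cell cannot be told apart.

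Of the 10 genes, 3 were called in a comparison of 2 groups. XPO5 was higher under IL-1 in siCon cells, and DICER1 and TNRC6A were higher under siHDAC6 when IL-1 was present. The RefSeq promoters of these 3 genes (GRCh38.p14, from 250 bases before to 50 bases after the annotated start) are shown because these are the genes that were called. Capitals mark the GC box GGGCGG on either strand, a site of Sp1-type factors, and in DICER1 also the NF-kB consensus, which is named here for the transcription factor that IL-1 activates.
DICER1, chr14:95157480-95157779, minus strand: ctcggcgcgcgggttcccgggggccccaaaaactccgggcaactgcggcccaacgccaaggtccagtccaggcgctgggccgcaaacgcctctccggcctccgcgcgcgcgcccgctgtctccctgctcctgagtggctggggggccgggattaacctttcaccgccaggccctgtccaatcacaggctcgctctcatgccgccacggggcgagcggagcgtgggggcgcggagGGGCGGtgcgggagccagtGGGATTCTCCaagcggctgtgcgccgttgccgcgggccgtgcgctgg
TNRC6A, chr16:24729401-24729700, plus strand: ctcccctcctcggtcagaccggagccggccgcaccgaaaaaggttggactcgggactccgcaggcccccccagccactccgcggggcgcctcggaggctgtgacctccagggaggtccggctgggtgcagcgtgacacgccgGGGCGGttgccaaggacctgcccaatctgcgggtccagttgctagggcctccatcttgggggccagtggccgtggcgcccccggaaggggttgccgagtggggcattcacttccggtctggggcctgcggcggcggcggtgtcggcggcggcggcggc
XPO5, chr6:43575989-43576288, minus strand: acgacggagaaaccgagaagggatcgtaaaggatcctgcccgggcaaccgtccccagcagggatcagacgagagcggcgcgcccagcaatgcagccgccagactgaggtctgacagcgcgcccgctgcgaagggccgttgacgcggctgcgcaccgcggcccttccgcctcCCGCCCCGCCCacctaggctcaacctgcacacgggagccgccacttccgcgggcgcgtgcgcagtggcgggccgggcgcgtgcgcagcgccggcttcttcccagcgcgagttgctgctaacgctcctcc

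All 3 promoters were rich in G and C, at 73.7% in DICER1, 73.7% in TNRC6A and 71.7% in XPO5 against a median of 58.7% over 35116 RefSeq promoters of the same length. They held 37, 31 and 41 CpG dinucleotides, where the median promoter held 14. Promoters were found for 9 of the 10 genes, and 8 of the 9 held a GC box (45.0% of all promoters did). The 2 GC boxes of XPO5 overlap. The NF-kB consensus, searched on both strands, matched in DICER1, starting at position 4 (the annotated first base being 1), in AGO1, starting at position -219, and in 5.9% of all promoters. The AP-1 motif TGANTCA, present in 7.7% of promoters, was in 0 of the 9. These matches describe letters in a window and say nothing of binding in these cells.

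**Figure D1:**
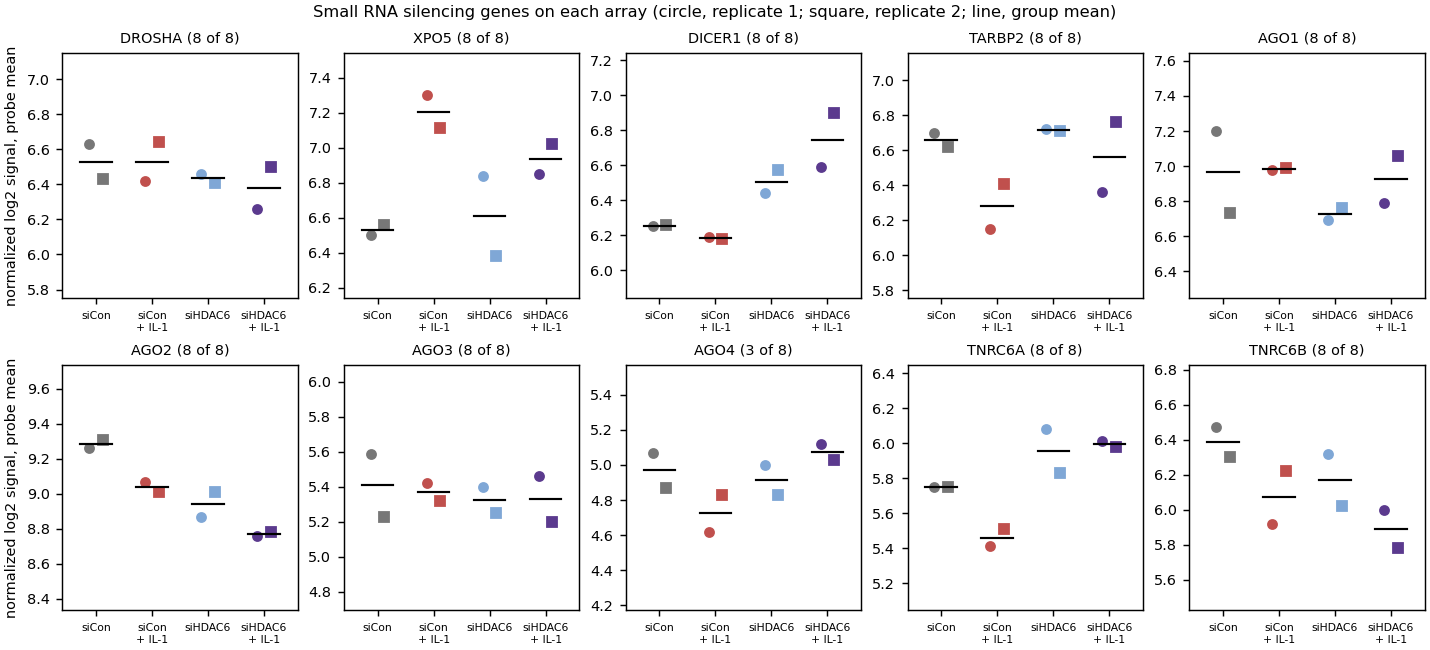
Normalized log2 signal (vertical axis, mean over the probes of a gene) of the 10 genes on each of the 8 arrays, by group, with circles for replicate 1, squares for replicate 2 and lines for the group mean. All panels span the same range on the vertical axis, the number after each name is the count of arrays above background, and XPO5, DICER1, TNRC6A and AGO2 show the widest gaps between groups.

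Nuclear cutting and export were the first step examined. DROSHA, the nuclear enzyme that releases the microRNA hairpin, read 6.63 and 6.43 in siCon, 6.42 and 6.64 in siCon + IL-1, 6.46 and 6.41 in siHDAC6, and 6.26 and 6.50 in siHDAC6 + IL-1. On this mean over 2 probes its arrays overlapped between the groups in all 4 comparisons. The log2 fold change of DROSHA with IL-1 was -0.00 (95% interval -0.31 to 0.31) in siCon cells and -0.05 (-0.36 to 0.25) in siHDAC6 cells, and with siHDAC6 it was -0.09 (-0.40 to 0.21) without and -0.15 (-0.46 to 0.16) with IL-1. Changes of DROSHA inside these intervals were not detectable with 2 arrays per group. Its second probe was above background on only 3 of 8 arrays, and the first on 8 of 8. The first probe read 8.02 and 8.01 in siCon and 7.94 and 7.99 in siCon + IL-1 cells. It read 7.88 and 8.14 in siHDAC6 and 8.03 and 8.11 in siHDAC6 + IL-1 cells. Its arrays did not overlap for IL-1 in siCon cells (-0.05) or for siHDAC6 with IL-1 (0.11), neither called. Over all genes 59.9% and 52.4% did not overlap in these comparisons.

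XPO5, the exporter of microRNA hairpins, was 1.59-fold higher after IL-1 in siCon cells. Its values were 6.50 and 6.56 in siCon and 7.30 and 7.11 in siCon + IL-1 cells, with 6.84 and 6.38 in siHDAC6 and 6.85 and 7.02 in siHDAC6 + IL-1 cells. Both siCon + IL-1 arrays lay above every other array, whereas the siHDAC6 arrays spread widely and replicate 1 of that group came within 0.01 of the lower siHDAC6 + IL-1 array. The log2 fold change was 0.67 in siCon cells (standard error 0.16, 95% interval 0.30 to 1.05, adjusted p = 0.024, n = 2 per group), a size exceeded by 10.6% of all genes. In siHDAC6 cells it was 0.32 (-0.05 to 0.70, adjusted p = 0.27). The difference of both responses was -0.35 (-0.88 to 0.18, adjusted p = 0.67), so a weaker response after siHDAC6 was not shown. Averaged over both siRNAs, IL-1 raised XPO5 by 0.50 (standard error 0.11, adjusted p = 0.015). The call in siCon cells was lost in the fit without any 1 of the 4 siCon and siCon + IL-1 arrays (adjusted p = 0.050 to 0.11) and under median scaling in place of quantile normalization (0.41, adjusted p = 0.30).

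Among 8614 genes detected on all 8 arrays, those whose pattern over the 8 arrays was most like that of XPO5, by Pearson's r, were RUNX3, a transcription factor of the Runt family (0.971), POMP, a proteasome assembly factor (0.960), PLGRKT, a plasminogen receptor (0.956), BTN3A3, a butyrophilin (0.955), and LIN52, a subunit of the DREAM complex (0.950). The points share the 8 arrays and their normalization, and the values are descriptive. BTN3A3 averaged 6.29 in siCon, 7.19 in siCon + IL-1, 6.29 in siHDAC6 and 6.91 in siHDAC6 + IL-1, the same order of groups with IL-1 above those without.

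Cytoplasmic cutting depends on DICER1, and this gene was 1.47-fold higher with siHDAC6 in IL-1-stimulated cells. DICER1 read 6.25 and 6.26 in siCon, 6.19 and 6.18 in siCon + IL-1, 6.44 and 6.57 in siHDAC6, and 6.59 and 6.90 in siHDAC6 + IL-1. Every siHDAC6 array lay above every siCon array, in both IL-1 states, and the highest value was that of siHDAC6 + IL-1 replicate 2. The log2 fold change with IL-1 present was 0.56 (standard error 0.13, 95% interval 0.27 to 0.85, adjusted p = 0.037, n = 2 per group), and 8.0% of all genes changed more. Without IL-1 it was 0.25 (-0.04 to 0.54, adjusted p = 0.33), and the difference of both was 0.31 (-0.10 to 0.72, adjusted p = 0.60). Averaged over both IL-1 states the log2 fold change of DICER1 was 0.40 (adjusted p = 0.023, standard error 0.09). This averaged call was lost under median scaling and without a detection filter. With an array left out the averaged value was 0.33 to 0.48. The response to IL-1 itself was -0.07 after siCon and 0.24 after siHDAC6 (adjusted p = 0.74 and 0.29).

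Of 4 DICER1 probes, 2 were above background on 8 of 8 arrays and the rest did not pass the filter. The first of the 2 read 6.94 and 6.94 in siCon + IL-1 against 7.32 and 7.59 in siHDAC6 + IL-1, and the second 5.45 and 5.41 against 5.86 and 6.21. Both probes therefore moved the same way. Tested among 14483 single probes, their log2 fold changes were 0.51 (adjusted p = 0.056) and 0.60 (adjusted p = 0.045). The gene's call remained in the fit without siHDAC6 + IL-1 replicate 1 and was lost in the fits without any other array (adjusted p = 0.047 to 0.17 over the 8 fits). It was also lost under median scaling (0.71, adjusted p = 0.14), without a detection filter (0.34, adjusted p = 0.13) and when only the 4 arrays compared were fitted (adjusted p = 0.11).

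TARBP2, the partner of DICER1, read 6.70 and 6.62 in siCon, 6.15 and 6.41 in siCon + IL-1, 6.72 and 6.71 in siHDAC6, and 6.36 and 6.76 in siHDAC6 + IL-1. The siCon + IL-1 arrays were below both siCon arrays, with a log2 fold change of -0.38 that did not pass the test (95% interval -0.74 to -0.03, adjusted p = 0.13). The 2 probes of TARBP2 disagreed in IL-1-stimulated cells. The first read 6.25 and 6.38 in siCon + IL-1 against 6.95 and 6.83 in siHDAC6 + IL-1, giving a log2 fold change of 0.58 (adjusted p = 0.039 among single probes, standard error 0.13). The second read 6.04 and 6.43 against 5.77 and 6.70, with no shift of the mean (-0.00, standard error 0.28). They are assigned to different transcript records of TARBP2 in the platform annotation, and the mean over both was 0.29 (adjusted p = 0.30).

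**Figure D2:**
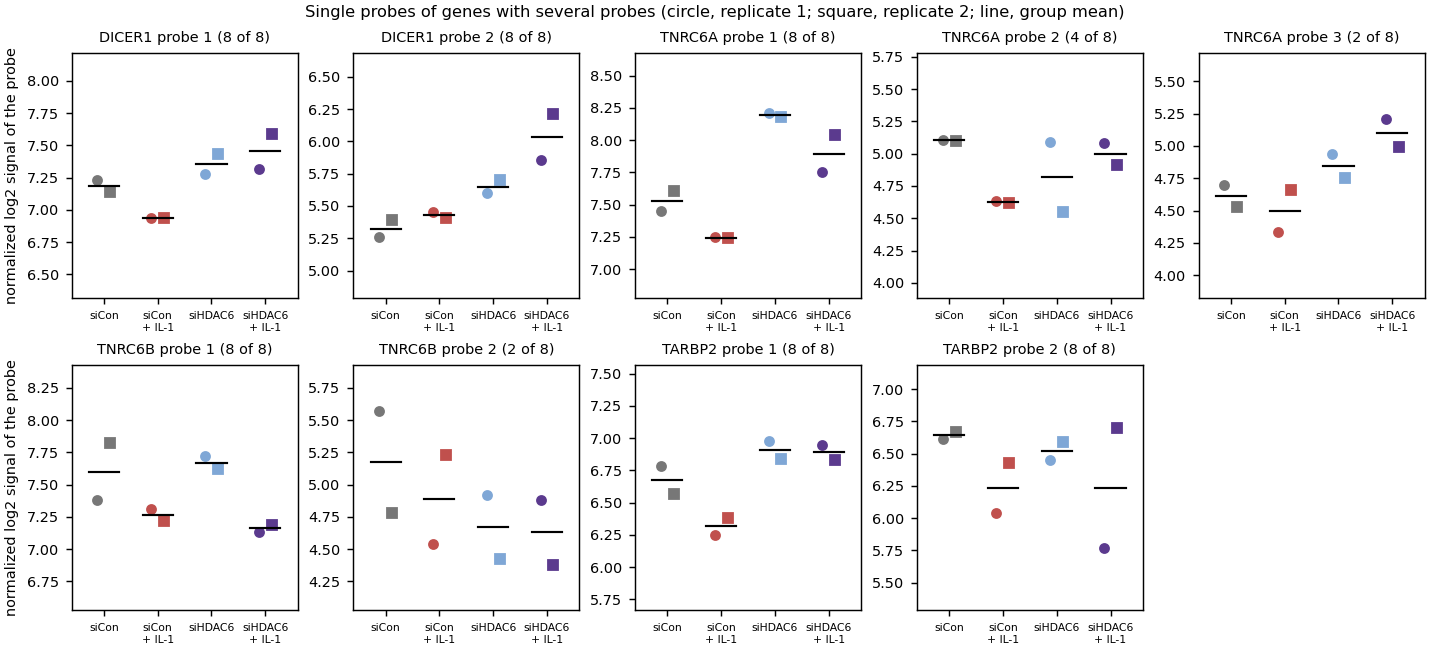
Normalized log2 signal (vertical axis) of the single probes past the filter for DICER1, TNRC6A, TNRC6B and TARBP2 on each array, by group, with circles for replicate 1, squares for replicate 2, lines for the group mean, and the count of arrays above background after the name. With IL-1 present both DICER1 probes were higher after siHDAC6, whereas of the TARBP2 probes the first was higher and the second spread from 5.77 to 6.70.

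AGO2, the Argonaute that cuts siRNA targets, read 9.26 and 9.31 in siCon, 9.07 and 9.01 in siCon + IL-1, 8.87 and 9.01 in siHDAC6, and 8.76 and 8.78 in siHDAC6 + IL-1. The siHDAC6 arrays lay below the siCon arrays in both IL-1 states, and those with IL-1 below those without in both siRNA states. With siHDAC6 the log2 fold change was -0.34 (standard error 0.10, adjusted p = 0.11) without IL-1 and -0.27 (adjusted p = 0.14) with it, and only their average passed the test, at -0.31 (standard error 0.07, 95% interval -0.47 to -0.14, adjusted p = 0.027). With IL-1 it was -0.25 in siCon cells (adjusted p = 0.13) and -0.17 in siHDAC6 cells (adjusted p = 0.33), and -0.21 averaged over both siRNAs (adjusted p = 0.062). The averaged call for siHDAC6 was lost in 8 of 8 fits that each left out 1 array (adjusted p = 0.050 to 0.091) and under median scaling (-0.26, adjusted p = 0.60). AGO2 also passed the test for siHDAC6 without IL-1 in the authors' own log2 values (-0.30, adjusted p = 0.011), after quantile normalization without background correction, with an offset of 50, and with a variance trend and robust moderation. Each of these settings also called more of all genes than the main fit did.

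AGO1, AGO3 and AGO4 are neighbouring genes on chromosome 1, in the order AGO4, AGO1, AGO3. AGO1 read 7.20 and 6.73 in siCon, 6.98 and 6.99 in siCon + IL-1, 6.69 and 6.76 in siHDAC6, and 6.79 and 7.06 in siHDAC6 + IL-1. The gap between the siCon arrays of AGO1 exceeded every difference between its group means, and the largest of its 4 log2 fold changes in size was -0.25, with siHDAC6 without IL-1 (95% interval -0.63 to 0.14, adjusted p = 0.48). AGO3 read 5.59 and 5.23, 5.42 and 5.32, 5.40 and 5.25, and 5.46 and 5.20 in the same order of groups. Its arrays overlapped in every comparison of groups, and of its 2 probes 1 was above background on only 2 of 8 arrays. AGO4 was at the edge of detection, above background on 1 of 2 siCon, 0 of 2 siCon + IL-1, 0 of 2 siHDAC6 and 2 of 2 siHDAC6 + IL-1 arrays. Its signals lay between 4.62, on a siCon + IL-1 array, and 5.12, on a siHDAC6 + IL-1 array. Detected probes reached down to 4.90 to 5.17, depending on the array, and against this limit AGO4 was at least 1.06-fold higher with IL-1 in siHDAC6 cells (adjusted p = 0.49). No other comparison of AGO4 gave a fold above this limit. AGO4 met the filter of 2 arrays only through the siHDAC6 + IL-1 group, in which it was highest. Its higher values in that group are therefore no support for a change.

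The GW182 gene TNRC6A was 1.46-fold higher with siHDAC6 in IL-1-stimulated cells. It read 5.75 and 5.75 in siCon, 5.41 and 5.51 in siCon + IL-1, 6.08 and 5.83 in siHDAC6, and 6.01 and 5.98 in siHDAC6 + IL-1. As for DICER1, every siHDAC6 array was above every siCon array, and the siCon + IL-1 arrays were the lowest of the 8. The log2 fold change with IL-1 present was 0.54 (standard error 0.11, 95% interval 0.28 to 0.81, adjusted p = 0.031, n = 2 per group), and 8.7% of all genes changed more. Without IL-1 it was 0.20 (-0.06 to 0.47, adjusted p = 0.39), and the difference of both was 0.34 (-0.04 to 0.71, adjusted p = 0.53). Averaged over both IL-1 states it was 0.37 (standard error 0.08, adjusted p = 0.022). This averaged call was lost under median scaling, and with an array left out the averaged value was 0.31 to 0.44.

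The gene value of TNRC6A averages 3 probes of unequal strength. The first was above background on 8 of 8 arrays and read 7.45 and 7.61 in siCon, 7.25 and 7.24 in siCon + IL-1, 8.21 and 8.18 in siHDAC6, and 7.75 and 8.04 in siHDAC6 + IL-1. On this probe the shift with siHDAC6 was the same size in both IL-1 states, 0.66 (adjusted p = 0.039 among single probes) without and 0.65 (adjusted p = 0.029) with IL-1, both with a standard error of 0.13, and the difference of both was -0.01 (standard error 0.19, adjusted p = 0.99). The second probe, above background on 4 arrays, gave -0.29 without and 0.37 with IL-1 (adjusted p = 0.43 and 0.25), and the third 0.23 and 0.60 (adjusted p = 0.48 and 0.059). The third was above background on both siHDAC6 + IL-1 arrays and on no other, so it passed the filter through the group in which it was high, and it is part of the gene mean of 0.54. Where the first probe alone stood for the gene the change with IL-1 present was 0.65 (adjusted p = 0.024). TNRC6A was thus called without IL-1 as well where its strongest probe stood for the gene (0.66, adjusted p = 0.032) or where only probes detected on all 8 arrays were averaged (0.66, adjusted p = 0.011), the latter an alternative chosen after the values were seen. The call with IL-1 remained in the fits without siHDAC6 replicate 1 or replicate 2 and was lost in those without any other array (adjusted p = 0.035 to 0.14 over the 8 fits), under median scaling (0.61, adjusted p = 0.24) and when only the 4 arrays compared were fitted (adjusted p = 0.075).

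TNRC6B, its relative, read 6.47 and 6.30 in siCon, 5.92 and 6.22 in siCon + IL-1, 6.32 and 6.02 in siHDAC6, and 6.00 and 5.78 in siHDAC6 + IL-1. The arrays with IL-1 lay below those without in both siRNA states, with log2 fold changes of -0.31 (95% interval -0.68 to 0.05, adjusted p = 0.21) in siCon and -0.28 (-0.64 to 0.09, adjusted p = 0.33) in siHDAC6 cells. Only the first of its 3 probes was above background on 8 of 8 arrays. On that probe the values were 7.38 and 7.82, 7.31 and 7.22, 7.72 and 7.62, and 7.13 and 7.19 in the same order of groups, and IL-1 averaged over both siRNAs gave -0.42 (standard error 0.11, adjusted p = 0.026 among single probes, 24.4% of which were called). In siHDAC6 cells this probe gave -0.51 with IL-1, which did not pass among single probes (adjusted p = 0.088) or where the strongest probe stood for each gene (0.077), and did when both arrays of a group had to reach a detection p under 0.01 (0.046) or when only probes detected on all 8 arrays were used (0.043).

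**Figure D3:**
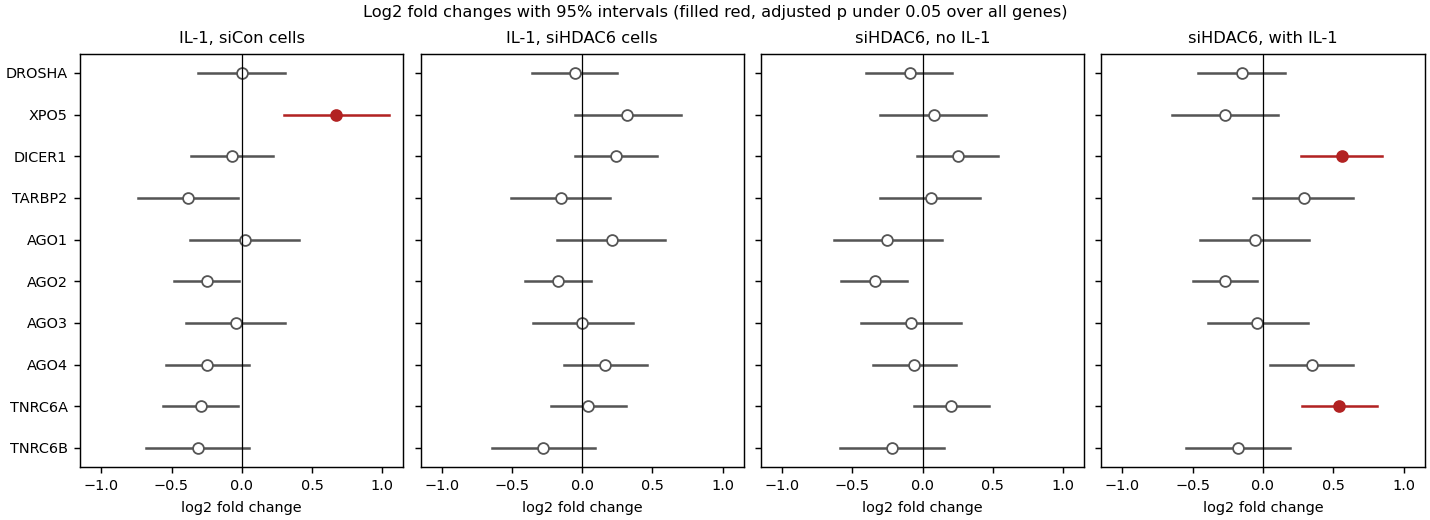
Log2 fold changes (horizontal axis) of the 10 genes in the 4 comparisons of groups, with points for the estimate, lines for its 95% interval and filled red symbols for an adjusted p under 0.05. XPO5 at 0.67 with IL-1 in siCon cells, and DICER1 at 0.56 and TNRC6A at 0.54 with siHDAC6 in IL-1-stimulated cells, are the filled symbols.

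Counts of called genes are read against the share called on the whole array. IL-1 in siCon cells gave 1 call of 10, where 20.6% of all 11182 genes were called (9.37% higher), and IL-1 in siHDAC6 cells 0 of 10, where 10.3% were. With siHDAC6 the counts were 0 of 10 without IL-1 (4.05% of all genes) and 2 of 10 with IL-1 (8.07% of all genes, 3.65% higher). Averaged over both siRNAs IL-1 gave 1 call of 10 (27.0% of all genes), and siHDAC6 averaged over both IL-1 states gave 3 of 10, DICER1, TNRC6A and AGO2 (14.2% of all genes). The interaction, which tests whether siHDAC6 altered the response to IL-1, gave 0 calls of 10 by limma, with 0.116% of all genes called. The share of members called was thus below that of all genes for IL-1 and above it for siHDAC6 with IL-1 and averaged, counts of at most 3 genes that carry no test. An unadjusted p under 0.05 was met by 4 of the 10 genes with IL-1 in siCon cells (33.3% of all genes), 0 with IL-1 in siHDAC6 cells (24.9%), 1, AGO2, with siHDAC6 without IL-1 (19.6%), 4 with siHDAC6 with IL-1 (25.1%) and 0 in the interaction (9.98%). It was met by 4 for IL-1 averaged (38.8%) and 3 for siHDAC6 averaged (29.9%), both close to the share of all genes. The 4 with siHDAC6 with IL-1 include AGO4, which passed the filter through the group in which it was high.

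The comparisons share arrays, so their values stand side by side without a test between them. The median log2 fold change of the 10 genes was -0.16 with IL-1 in siCon cells (-0.09 over all genes), 0.02 in siHDAC6 cells (-0.06), -0.07 with siHDAC6 without IL-1 (0.01) and -0.05 with IL-1 (0.03). Members moved in both directions in each comparison, from -0.38 to 0.67 with IL-1 in siCon cells and from -0.27 to 0.56 for siHDAC6 with IL-1 present. The arrays of both groups did not overlap for 7, 6, 4 and 5 of the 10 genes in these 4 comparisons, against 59.9%, 55.7%, 50.6% and 52.4% of all genes, close to the background share in each. AGO4, which passed the filter through siHDAC6 + IL-1, is among the 6 and among the 5. Among the 17 single probes, 1, 0, 1 and 3 were called in the same order, against 17.9%, 8.99%, 3.13% and 6.67% of 14483 probes. For the interaction the count was 0 (0.104% of all probes), for IL-1 averaged over both siRNAs 2 (24.4%), and for siHDAC6 averaged over both IL-1 states 6 of 17 (12.3%), of which 2 were DICER1 probes, 2 TNRC6A probes, 1 the TARBP2 probe above and 1 the AGO2 probe. One of these TNRC6A probes, the third, passed the filter only through the siHDAC6 + IL-1 group in which it was high. Its call therefore adds no support, and several of the 6 are probes of the same gene.

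Genes that work beside the machinery were read in the same way. Of 15 processing partners 13 were measured, and IL-1 raised 3 of them in siCon cells, where 9.37% of all genes rose. It lowered 0, so 3 of 13 were called in either direction, near the 20.6% of all genes called. EIF2AK2, the double-stranded RNA-dependent kinase PKR, which binds TARBP2, rose from 8.78 and 8.70 in siCon to 10.96 and 11.19 in siCon + IL-1 cells, and its log2 fold change was 2.34 (adjusted p = 6.0e-06, standard error 0.12). ADAR, which edits double-stranded RNA, rose by 1.43 and MOV10, a helicase bound to Argonaute, by 1.29 (adjusted p = 1.2e-04 and 1.4e-04). The same 3 genes were those called in siHDAC6 cells (10.3% of all genes), at 2.44, 1.37 and 0.71. EIF2AK2 and ADAR are also known as genes induced by interferon. With siHDAC6, 0 of the 13 were called in either IL-1 state, where 4.05% and 8.07% of all genes were.

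The enzymes that carry out silencing downstream of TNRC6A, together with their binding partners, were represented by 31 genes of deadenylation and decapping, 28 of them measured. IL-1 raised 4 of them and lowered 1 in siCon cells, a share near the 20.6% of all genes called. XRN1, the exonuclease that degrades decapped mRNA, read 7.72 and 7.58 in siCon and 9.51 and 9.24 in siCon + IL-1 cells, a rise of 1.72 on the log2 scale (adjusted p = 9.1e-05). DCP1A, an activator of decapping, rose by 1.27, BTG1, an antiproliferative protein that binds the CCR4-NOT deadenylase, by 1.25, and PATL1, a decapping scaffold, by 0.75. CNOT10, a subunit of CCR4-NOT named after its value was seen, was the gene that fell (-0.70, adjusted p = 0.0018). In siHDAC6 cells, with 10.3% of all genes called, XRN1, BTG1 and PATL1 rose, by 1.12, 0.82 and 0.65. With IL-1 present, siHDAC6 raised 3 and lowered 1 of the 28 (8.07% of all genes were called). Those raised were CNOT10 (0.64), PABPC4, a poly(A)-binding protein (0.60), and DCP2, the decapping enzyme (0.49), of which PABPC4 and DCP2 are also named after their values were seen. PABPC4 was the 1 gene of the 28 called without IL-1 (4.05% of all genes were), again at 0.60 (adjusted p = 0.017). The gene that siHDAC6 lowered was DCP1A, from 7.45 and 7.80 in siCon + IL-1 to 6.74 and 7.02 in siHDAC6 + IL-1 (-0.75, standard error 0.17, adjusted p = 0.041). The difference of the DCP1A responses did not pass the test (-0.75, adjusted p = 0.38).

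Of 19 regulators of small RNAs and their turnover, 15 were measured, of which IL-1 raised 3 and lowered 2 in siCon cells (20.6% of all genes were called). ZC3H12A (regnase-1), an endonuclease that cuts microRNA precursors and inflammatory mRNAs, read 6.09 and 6.04 in siCon, 10.35 and 10.35 in siCon + IL-1, 6.12 and 5.79 in siHDAC6, and 9.99 and 9.94 in siHDAC6 + IL-1. Its log2 fold change with IL-1 was 4.29 in siCon cells (standard error 0.13, 19.5-fold, adjusted p = 3.0e-07) and 4.01 in siHDAC6 cells, with a difference of -0.27 (adjusted p = 0.66). PNPT1, a mitochondrial exoribonuclease, rose by 1.31 and TUT7, which adds uridines to precursor microRNAs, by 0.77. WTIP, named after its value was seen, fell by 0.47 (adjusted p = 0.044). In siHDAC6 cells, with 10.3% of all genes called, IL-1 raised ZC3H12A and PNPT1 and lowered 1 gene, TUT4 (-0.49, adjusted p = 0.020). TUT4, a relative of TUT7, is named after its value was seen. LIN28A, which blocks the maturation of let-7, was close to the limit of detection, at 5.19 and 5.10 in siCon. It lay below background on both siCon + IL-1 arrays, a drop from siCon of at least 1.04-fold. Relative to siCon + IL-1 LIN28A was at least 1.30-fold higher in the siHDAC6 + IL-1 group. The adjusted p-values of 0.0035 and 0.0033 belong to the fitted log2 fold changes of -0.73 and 1.05. These include signals below background, so they do not test the bounds.

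Of 11 chaperones that load small RNAs into Argonaute 10 were measured. With IL-1 in siCon cells 2 fell, near the share of 20.6% of all genes called, DNAJB1, an HSP40 (-0.96, adjusted p = 0.0013; -0.54 in siHDAC6 cells, adjusted p = 0.033), and FKBP4, an HSP90 co-chaperone (-0.47, adjusted p = 0.037). With siHDAC6 without IL-1 (4.05% of all genes called) 1 fell, PTGES3, the HSP90 co-chaperone p23, from 10.43 and 10.44 in siCon to 9.71 and 9.46 in siHDAC6 cells (-0.85, standard error 0.18, adjusted p = 0.042), and with IL-1 0 of the 10 were called. Of 10 genes of the germline Piwi pathway only 3 passed the filter. PIWIL2, a Piwi protein of the testis, was at least 1.70-fold higher under IL-1 in siCon cells (adjusted p = 0.0030) and at least 1.68-fold lower in siHDAC6 + IL-1 than siCon + IL-1 cells (adjusted p = 0.019). It was above background on both siCon + IL-1 arrays and on 1 other, so it passed the filter only through the group that is the higher in both comparisons. Both adjusted p-values of PIWIL2 are therefore no support for a change. Of 14 microRNA host transcripts, 0 had a probe under the symbol searched, and microRNAs themselves are not read by these arrays.

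**Figure D4:**
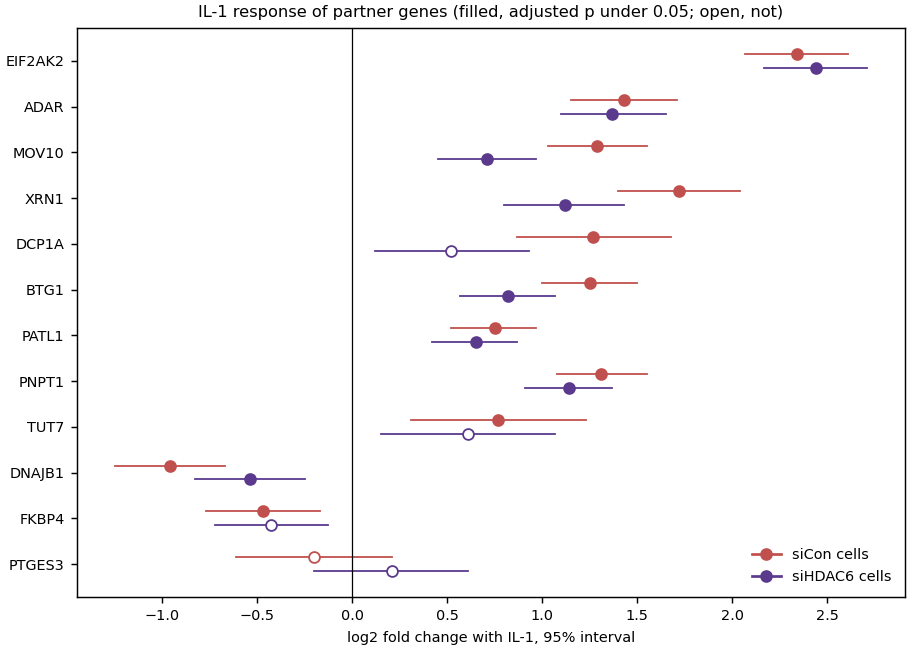
Log2 fold change with IL-1 (horizontal axis) of EIF2AK2, ADAR, MOV10, XRN1, DCP1A, BTG1, PATL1, PNPT1, TUT7, DNAJB1, FKBP4 and PTGES3, in siCon cells (red) and siHDAC6 cells (purple), with 95% intervals, filled symbols for an adjusted p under 0.05 and open symbols otherwise. EIF2AK2 stood at 2.34 and 2.44, and DNAJB1 fell in both. ZC3H12A, at 4.29 and 4.01, is not drawn.

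A few markers of chondrocytes and of other cells also differed between groups. Of 12 chondrocyte markers 6 passed the filter, and SOX5, SOX6, ACAN, COL9A2, MATN3 and COMP did not. Adding IL-1 changed 1 of these 6 after siCon (20.6% of all genes called) and 1 after siHDAC6 (10.3%). With siHDAC6, 0 of the 6 were called without IL-1 (4.05%) and 1 with it (8.07%). For 4 measured markers of other cells the counts were 1, 0, 2 and 1 in the same order. Counts this small carry no test and show no shift of either set. SOX9, the transcription factor of chondrocytes, was lower with IL-1 (-1.16 after siCon and -0.67 after siHDAC6, adjusted p = 3.6e-04 and 0.011), in the comparison in which XPO5 rose, and HAPLN1, a link protein of cartilage, was higher in siHDAC6 + IL-1 than siCon + IL-1 arrays (0.72, adjusted p = 0.013), as DICER1 and TNRC6A were. In that comparison SOX9 stood at 0.30 and the collagen genes COL2A1, COL9A1, COL11A1 and COL11A2 at -0.09, -0.12, -0.08 and -0.16, none of them called. COL11A2 was below background on all arrays of these groups, and COL2A1 was above it on 1 of 2 in each. COL9A1 was above background on 2 of 2 siCon + IL-1 and 1 of 2 siHDAC6 + IL-1 arrays. The values of COL2A1, COL9A1 and COL11A2 were thus close to background. The summed normalized signal of the 6 markers was 634 to 659 in siCon, 375 to 386 in siCon + IL-1, 566 to 648 in siHDAC6 and 438 to 471 in siHDAC6 + IL-1 arrays. SOX9 alone made up 49.9% to 67.6% of this sum, which adds probes without a common scale and serves only to set arrays side by side. Of 12 markers of other cells 4 passed the filter, among them CD68, a lysosomal protein of macrophages and other cells, which was lower with siHDAC6 (-0.49 without and -0.72 with IL-1, adjusted p = 0.043 and 0.0078) and higher with IL-1 in siCon cells (0.40, adjusted p = 0.031). VWF, an endothelial glycoprotein, was lower with siHDAC6 without IL-1 (-1.29, adjusted p = 0.033), and MS4A1 and EPCAM were called in 0 of the 4 comparisons. The defining markers PTPRC, CD14, CD3E, PECAM1, CDH5, KRT19, CDH1 and ALB did not pass it. The summed signal of these 4 was 1289 to 1316 in siCon, 1583 to 1703 in siCon + IL-1, 901 to 938 in siHDAC6 and 987 to 1052 in siHDAC6 + IL-1 arrays, of which CD68 alone made up 85.1% to 91.5%. The part of these shifts in the results for the silencing genes was not tested.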

How the data were processed

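The authors deposited, per array and probe, the summarised signal intensity, neither background-subtracted nor normalized, and its detection p-value, along with a second table of their log2 values from lumi, whose version the labels do not give. The deposited intensity values were corrected with neqc of limma 3.58.1 (R 4.3.3, offset 16, background from the detection p-values), quantile-normalized and log2-transformed. Probes that reached a detection p of 0.05 on 2 or more of 8 arrays were averaged per gene symbol (27578 probes had 1 symbol, 13 several and 21212 none), which gave 11182 genes. One mean per group was fitted with lmFit to all 8 arrays, with eBayes moderation (residual degrees of freedom 4, prior 3.79). For each of 7 contrasts Benjamini-Hochberg adjustment ran across the whole gene table. A group without an array above background gives only a lower bound of a fold change, set against the lowest detected signal of each array. The adjusted p beside such a bound is that of the fitted signals, part of them below background, and does not test the bound. Scripts were tested on simulated data. The slide of an array is not given in the sources used here, so no slide block was run.

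The members, gene lists and tests were chosen with earlier results of these data known. Named are all 10 members, up to 4 called genes of each further list by size of change, HDAC6, and the 5 genes most like the member with the widest range of group means. The alternatives comprised an offset of 50, median scaling, the authors' log2 values, quantile normalization with no background step, no filter, a stricter filter, single probes, the strongest probe, a variance trend with robust moderation (statmod 1.5.0), the 4 arrays compared, a replicate block, leaving out each array and, chosen after seeing the data, only probes detected on all 8 arrays.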

Additional observations from a re-analysis of the deposited data

How the results depend on the processing

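Over 70 results of the 10 genes and 1356 alternative values, 50 lost and 34 gained a call, and 0 called values changed sign. Of the others, 122 values of results called in neither fit had the opposite sign, most often for DROSHA and AGO3. The counts of called genes moved as follows. For IL-1 in siCon cells (1 called), the authors' log2 values gave 2 and median scaling 0, and leaving out an array 0 to 1. For IL-1 in siHDAC6 cells (0), a detection p under 0.01 gave 1, as did only probes detected on all 8 arrays. For siHDAC6 without IL-1 (0), the count was 1, AGO2, with an offset of 50, the authors' log2 values, no background correction before quantile normalization, and a variance trend with robust moderation, and 1, TNRC6A, with a detection p under 0.01, single probes, the strongest probe, and probes detected on all 8 arrays. Over all genes the main fit called 183 higher and 270 lower there. The offset of 50 called 421 and 470, the authors' values 529 and 595. No background correction called 399 and 456, the trend 461 and 517. A detection p under 0.01 called 372 and 417 of 9173 genes, probes detected on all 8 arrays 367 and 405 of 8595. Single probes gave 178 and 276 of 14483, and the strongest probe 194 and 260. For siHDAC6 with IL-1 (2), it was 0 with median scaling, 1 without a filter, 0 with only the 4 arrays compared, 0 to 1 when an array was left out, and 3 with the authors' log2 values (AGO2 added), single probes or the strongest probe (TARBP2 added). For IL-1 averaged over both siRNAs (1), it was 3 with the authors' log2 values, 3 without background correction, 3 with an offset of 50, 0 with median scaling, 2 without a filter, 4 with a detection p under 0.01, 2 with single probes, 3 with the strongest probe, 2 with a trend, 4 with probes detected on all 8 arrays, and 0 to 1 when an array was left out. For siHDAC6 averaged over both IL-1 states (3), it was 0 with median scaling, 0 to 2 when an array was left out, 2 without a filter (DICER1 lost), and 4 with single probes or the strongest probe (TARBP2 added). Over all genes, the main fit called 1048 higher and 1252 lower for IL-1 in siCon cells, and the authors' values 1174 and 1917. For IL-1 in siHDAC6 cells it called 670 and 478, against 759 and 698 with a detection p under 0.01. For siHDAC6 with IL-1 the counts were 408 and 494, and 872 and 820 with the authors' values. For IL-1 averaged they were 1217 and 1803, against 1333 and 2441 with the authors' values. The interaction gave 0 of the 10 genes under each alternative. The cause of these moves was not tested, apart from the smaller number of arrays in the fits that leave arrays out. Median scaling moved the median of all genes from -0.09 to -0.25 for IL-1 in siCon cells and from 0.03 to 0.15 for siHDAC6 with IL-1, beside which XPO5 stood at 0.41 and DICER1 at 0.71. Median scaling called 141 genes higher and 95 lower for siHDAC6 with IL-1 (408 and 494 in the main fit). For IL-1 in siHDAC6 cells it called 432 and 97 (670 and 478 in the main fit).

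With the replicate number as a block, 1 gene, DICER1, was called for siHDAC6 with IL-1 in place of 2, since TNRC6A reached an adjusted p of 0.050, and the replicate block moved no other count of called members. Arrays with the same number showed no shared deviation (correlations of -0.04 to 0.05 over the 6 pairs of groups). Whether same-numbered samples were made together cannot be told from these values. With 2 arrays per group and signals of AGO4 and of single AGO3, DICER1, DROSHA, TNRC6A and TNRC6B probes near background, changes of these cannot be bounded tightly.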
